A study of Homo sapiens with 7 samples.

Results

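Own-body loops are chromatin contacts that run from a promoter of a protein-coding gene to a region inside the same gene. They were taken from lists of H3K27ac HiChIP loops, in which 2 regions of 1 chromosome (anchors) were joined by read pairs after enrichment for histone H3 acetylated at lysine 27. A pair of anchors counted when the first lay over a 500 bp window centred on any start site of a protein-coding gene, the other lay over no such window, and the midpoint of the other fell between the ends of that gene's record. Pairs with a promoter at only 1 anchor are called promoter-distal, and the rest of them are called other promoter-distal loops below. The rule found 34126 own-body loops among 354783 loops in all, of which Ishikawa cells gave 15662 of 163530, T-47D cells 3432 of 42027 and LNCaP cells 15032 of 149226. No read count beyond that of the deposited lists entered the choice.

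Ishikawa is an endometrial adenocarcinoma line (4 samples), T-47D a breast carcinoma line (1 sample) and LNCaP a prostate carcinoma line (2 samples). Ishikawa cells were exposed for 1 h to DMSO (2 samples) or to 10 nM estradiol, E2 (2 samples), whereas no treatment is labelled for T-47D and LNCaP. Each line has 1 list that pools its samples, so values have no replicate error, DMSO and E2 were not compared, and intervals in parentheses are 95% Wilson intervals that cover counting error only. Ishikawa chromatin was cut with DpnII and T-47D and LNCaP chromatin with MboI, both at GATC. Since sonication and sequencing differed in the same way, no comparison with Ishikawa can separate the preparation from the cell. The Ishikawa list held 1040329 read pairs, the T-47D list 351260 and the LNCaP list 1805322. All 9 genes used to check the labels (among them GATA3, KLK3 and PAX8) had their highest promoter-distal read pairs per 100000 read pairs of the list in the line they mark. A pair under 3 read pairs in a list, or in 1 of the 4 separately sorted parts of the Ishikawa list, is not listed. Pairs not significant after correction were removed too. A value of 0 below therefore means that no listed loop met the rule there, and a contact that missed the rule can still be listed.

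Introns make up most of the length of human genes, and many enhancers lie in them. An enhancer can act on the gene that holds it, on a neighbour, or on both, and a contact marked by H3K27ac is a candidate for such a pairing. Many genes also have several start sites, some of them deep inside the longest transcript, so a contact within a gene can join an alternative promoter to an element on either side of it. Steroid hormone receptors bind DNA as dimers at palindromes, and several of their best known target elements lie in or beside the first introns of target genes.

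In single genes, estrogen elements were searched in Ishikawa and T-47D anchors only and androgen elements in LNCaP anchors only. Among genes of estrogen and androgen response, 3 carried an exact palindrome found in this way inside the distal anchor of an own-body loop. These stretches are shown because they place a known kind of receptor element at the far end of a promoter contact. Each is 51 bases of GRCh37, read on the plus strand from 5′ to 3′, with the palindrome in capitals. The estrogen response element searched was GGTCANNNTGACC and the androgen response element was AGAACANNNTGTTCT, each being its own reverse complement.
GREB1, chr2:11653017-11653067: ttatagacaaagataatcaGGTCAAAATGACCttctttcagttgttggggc
GREB1, chr2:11664707-11664757: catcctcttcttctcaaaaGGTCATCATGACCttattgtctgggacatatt
GREB1, chr2:11672641-11672691: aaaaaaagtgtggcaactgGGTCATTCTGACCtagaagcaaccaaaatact
SIAH2, chr3:150474412-150474462: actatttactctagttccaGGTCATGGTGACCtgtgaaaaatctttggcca
FKBP5, chr6:35569841-35569891: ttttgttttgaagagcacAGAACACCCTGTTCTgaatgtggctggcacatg

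GREB1 (ENSG00000196208.14_11, chromosome 2, 11622467 to 11782914, plus strand) encodes a cofactor of the estrogen receptor and is among the most responsive estrogen targets. Its 3 palindromes lay at -21.1, -9.44 and -1.50 kb from the canonical start at 11674171, that is, upstream of the canonical transcript, and 30.6, 42.3 and 50.2 kb downstream of the 5′ end of the gene record, in introns of longer transcripts. In Ishikawa the anchor at 11662195 to 11673396 held the last 2 of them and was joined to the anchor at 11675214 to 11688800 by 37 read pairs, with 7, 0, 8 and 22 read pairs in parts 1 to 4. In T-47D the anchor at 11671017 to 11672840 held only the third and was joined to 2 anchors over GREB1 start sites by 134 read pairs. The same 51 bases at 11672641 therefore sat inside a distal anchor of an own-body loop in both Ishikawa and T-47D. The LNCaP anchors of GREB1 were not searched for estrogen elements.

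SIAH2 (ENSG00000181788.4_8, chromosome 3, 150458912 to 150481264, minus strand), which encodes a ubiquitin ligase, had its palindrome in intron 1, 6.52 kb downstream of the canonical start. The anchor around it was joined to the SIAH2 promoter by 127 read pairs in T-47D over 5.34 kb. FKBP5 (ENSG00000096060.15_7, chromosome 6, 35541362 to 35696360, minus strand), which encodes an immunophilin of steroid receptor complexes and is a classic androgen target, had its androgen palindrome in intron 5, 86.8 kb downstream of the canonical start. That anchor was joined to the anchor over the 5′ end of FKBP5 by 122 read pairs in LNCaP and by 136 over all FKBP5 promoter anchors. None of the 5 matches lay in an exon of any transcript of its gene.

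Exact palindromes were rare at own-body distal anchors in general. Over whole anchors, an estrogen palindrome lay in 60 of 12138 own-body distal anchors in Ishikawa (0.494%, 0.384 to 0.636) against 0.548% of all distal anchors there, and in 24 of 2862 in T-47D (0.839%, 0.564 to 1.24) against 0.709%. An androgen palindrome lay in 25 of 10620 in LNCaP (0.235%, 0.160 to 0.347) against 0.198%. In each line the interval for the own-body anchors held the value for all distal anchors. A match in these letters is a description of the sequence and not of receptor binding.

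Shorter motifs were compared in windows of 1000 bp centred on each distal anchor, on both strands. The FOXA core TGTTTAC was in 25.4% (24.6 to 26.2) of own-body windows in LNCaP, 18.4% (17.0 to 19.8) in T-47D and 13.8% (13.2 to 14.5) in Ishikawa, against 25.8%, 17.4% and 14.4% of all distal windows. The GATA core AGATAA was in 55.3%, 43.5% and 47.5% of own-body windows in the same order, against 55.8%, 41.9% and 50.6%. Against windows reached only from other promoters the GATA values were higher, at 55.3% (54.4 to 56.3) against 52.3% (51.4 to 53.2) in LNCaP, 43.5% (41.7 to 45.3) against 38.5% (37.1 to 39.9) in T-47D and 47.5% (46.6 to 48.3) against 45.4% (44.6 to 46.2) in Ishikawa. Windows joined to no promoter had still more, at 61.3% (60.3 to 62.4), 47.6% (45.4 to 49.7) and 52.9% (52.4 to 53.3). The AP-1 site TGANTCA was in 30.8%, 28.7% and 26.9%, against 32.0%, 29.0% and 29.1%. Own-body windows were thus within a few percentage points of all distal windows of their own list for each of these. Between lists the own-body values ranged from 13.8% to 25.4% for the FOXA core, 43.5% to 55.3% for the GATA core and 26.9% to 30.8% for AP-1. The core of the site of the insulator protein CTCF (CC, 3 free bases, AGG, 1 free base, GGC) lay between the other classes at own-body anchors. It was in 2.67% (2.38 to 3) of own-body windows in LNCaP against 4.49% (4.13 to 4.88) of windows reached only from other promoters, and in 6.11% (5.29 to 7.05) against 8.11% (7.38 to 8.91) in T-47D. In Ishikawa the values were 2.70% (2.43 to 3.01) and 3.02% (2.75 to 3.32), whose intervals overlap. Windows joined to no promoter had the lowest shares, at 2.06% (1.77 to 2.38) in LNCaP, 4.41% (3.62 to 5.37) in T-47D and 2.07% (1.95 to 2.20) in Ishikawa. Over all distal windows the shares were 3.20%, 6.74% and 2.34%, so own-body windows were below that value in LNCaP and T-47D and above it in Ishikawa. The GC content of own-body windows was lower than that of windows reached only from other promoters in every list, at 41.0% against 42.8% in LNCaP, 46.2% against 48.4% in T-47D and 43.3% against 44.5% in Ishikawa, against which the motif differences were not tested.

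Own-body loops made up 35.5% (35.1 to 36.0) of the 44099 promoter-distal loops in Ishikawa, 25.1% (24.7 to 25.4) of 59907 in LNCaP and 20.6% of 16626 in T-47D. In the 4 parts of the Ishikawa list the share was 41.0%, 41.8%, 36.4% and 39.9%, above LNCaP and T-47D in every part. By read pairs the shares were 41.9% in Ishikawa, 40.6% in LNCaP and 28.3% in T-47D. The order of the 3 lines by number of loops therefore held in each Ishikawa part, but Ishikawa and LNCaP were nearly level by read pairs.

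The rule keeps an own-body loop within the length of its gene, a limit that other promoter-distal loops do not have, so the spans are given as a description. The median span of own-body loops was 35.0 kb in LNCaP, 27.2 kb in T-47D and 22.6 kb in Ishikawa, against 162, 112 and 69.0 kb for the others. The longest own-body loops reached 1340, 1249 and 903 kb in the same order, all within NAALADL2, a gene of 1372 kb that encodes a member of the glutamate carboxypeptidase family. Of promoter-distal loops of 5 to 10 kb, own-body loops were the majority in every list, at 68.3% (66.6 to 70.0) in LNCaP, 63.6% (62.1 to 65.0) in Ishikawa and 54.9% (51.6 to 58.2) in T-47D. At 200 to 500 kb they were 5.54%, 6.82% and 4.10% in the same order. Within the same span LNCaP was above Ishikawa up to 100 kb, so the higher overall share in Ishikawa went with shorter loops.

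Own-body loops had more read pairs than other promoter-distal loops with all spans pooled, with medians of 8 against 5 in LNCaP, 6 against 4 in T-47D and 5 against 4 in Ishikawa. In Ishikawa 45.9% (45.1 to 46.7) of them were listed in 2 or more of the 4 parts, against 30.9% (30.3 to 31.4) of the others. At equal span the medians differed by at most 1 read pair up to 200 kb in every list. The share of loops with 10 or more read pairs was 37.5% (36.1 to 39.0) of own-body loops against 36.0% (34.4 to 37.8) of the others at 10 to 20 kb in Ishikawa, and 40.8% (37.3 to 44.4) against 44% (40.6 to 47.5) in T-47D.

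In LNCaP own-body loops were the stronger class from 20 kb on. At 20 to 50 kb, 42.2% (40.8 to 43.7) of its own-body loops had 10 or more read pairs against 37.1% (35.8 to 38.4) of the others, and at 50 to 100 kb 33.1% (31.5 to 34.8) against 26.2% (25.2 to 27.2). At 100 to 200 kb the values were 32.4% (30.3 to 34.5) and 19.7% (19.0 to 20.5), and at 200 to 500 kb 32.8% (29.6 to 36.2) and 13% (12.5 to 13.6). The share of strong loops thus fell with span among other promoter-distal loops and stayed near a level from 50 kb on among own-body loops, with 36.7% (27.4 to 47) against 8.98% above 500 kb, where LNCaP had 90 of them. In Ishikawa and T-47D the classes separated only at 200 to 500 kb, at 8.54% (5.94 to 12.1) against 4.22% (3.66 to 4.86) and 12.6% (7.91 to 19.5) against 6.23% (5.42 to 7.16), from 316 and 127 own-body loops. Above 500 kb none of their 26 and 18 own-body loops had 10 or more read pairs, with upper limits of 12.9% and 17.6%. Without the 10 genes of most own-body read pairs, a choice made after the values were seen, the LNCaP own-body values from 50 kb on were 31.3%, 28.9%, 24.8% and 22.0% (12 to 36.7), which fell with span, so the near level rested on those genes. The values at 200 to 500 kb without them were 7.12% (4.65 to 10.7) in Ishikawa and 7.62% (3.91 to 14.3) in T-47D, whose intervals overlap those of the other loops. In LNCaP, loops from a canonical start or a gene's 5′ end gave 31.5% at 100 to 200 kb and 31.5% at 200 to 500 kb, and loops from other start sites 33.8% and 35.2%.

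**Figure D1:**
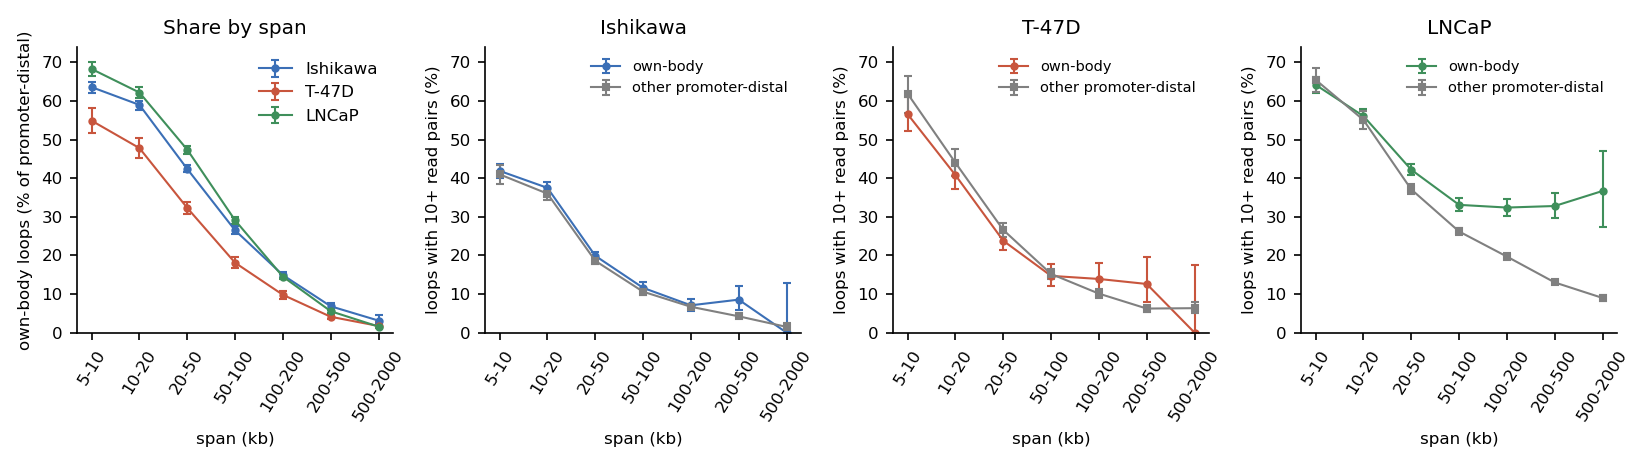
Left, own-body loops as a percent of promoter-distal loops in 7 bins of span in kb; the other panels give, for each cell line, the percent of own-body loops (coloured) and of other promoter-distal loops (grey) with 10 or more read pairs, with bars for 95% Wilson intervals. Own-body loops fell from 54.9% to 68.3% of loops at 5 to 10 kb to under 7% at 200 to 500 kb, and in LNCaP the coloured line lay above the grey one from 20 kb on, with 32.8% against 13% at 200 to 500 kb.

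Start sites inside the gene carried many of the loops. The promoter anchor lay over the canonical start or the 5′ end of the gene record in 73.9% (72.4 to 75.3) of own-body loops in T-47D, 64.3% (63.6 to 65.1) in LNCaP and 38.4% (37.6 to 39.1) in Ishikawa, and over internal start sites only in the rest. With all spans pooled both classes had similar support, with medians of 8 and 8 read pairs in LNCaP, 6 and 6 in T-47D and 5 and 6 in Ishikawa, and similar median spans of 35.4 and 34.2 kb, 27.3 and 27 kb, and 21.8 and 23.0 kb. At 5 to 10 kb they were apart, in opposite directions. Loops with 10 or more read pairs were 34.2% (31.4 to 37.0) of those from a canonical start or 5′ end and 47.4% (44.9 to 49.9) of those from internal starts in Ishikawa, but 68.3% (65.6 to 70.9) and 57.2% (53.5 to 60.8) in LNCaP. In T-47D they were 59.9% (54.7 to 64.9) and 47.7% (39.3 to 56.2), whose intervals overlap. Loops from internal start sites only were found in 3217 genes in Ishikawa, 1353 in LNCaP and 406 in T-47D. Own-body distal anchors, which by the rule cover none of these start sites, had a median width of 5.03 kb in Ishikawa, 3.15 kb in LNCaP and 2.38 kb in T-47D. The widths of the promoter anchors were not compared, and the part of anchor width in these shares was not tested. Loops from anchors over the 5′ end of the gene record can run only downstream, and those from all other anchors ran downstream in 53.6% of cases in T-47D, 48.8% in LNCaP and 44.4% (43.5 to 45.4) in Ishikawa.

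None of the 4 strongest loops of any list started from an anchor over the 5′ end of the gene record, and of the 100 strongest 54 did in T-47D, 34 in LNCaP and 26 in Ishikawa. Over all own-body loops the shares were 59.2%, 54.1% and 30.5%, so the strongest loops stood apart most in LNCaP. In Ishikawa the 4 strongest were in NBPF1, a member of a family of near-identical copies whose reads may be shared (130 read pairs), PALLD, the actin-binding palladin (125), CUEDC1, a ubiquitin-binding domain protein (118), and IQSEC3, an exchange factor of synapses (93). The PALLD loop held 39, 17, 27 and 42 read pairs in the 4 parts, so it was present in each of them. It joined chr4:169547776-169583171 to an anchor in intron 2 at chr4:169513794-169533263, and no loop of T-47D or LNCaP overlapped it at both ends.

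In T-47D the 4 strongest loops were 2 in GSE1 (513 and 287 read pairs), 1 in TRPS1 (244) and 1 in BMPER (237). GSE1 (ENSG00000131149.19_13, chromosome 16) encodes a subunit of a corepressor complex. Both of its loops started from the anchor over the canonical start at chr16:85642451-85649005 and ran upstream into introns of longer transcripts, over 146 and 41.4 kb. The loop of 513 read pairs in T-47D overlapped loops of at most 6 read pairs in Ishikawa and 23 in LNCaP. The loop of 287 overlapped loops of at most 11 and 183.

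In LNCaP the 4 strongest were 2 in PRKD1 (3007 and 2597 read pairs), 1 in ZBTB16 (1872) and 1 in MIPOL1 (1638). PRKD1 encodes protein kinase D1, ZBTB16 a zinc-finger repressor also called PLZF, and MIPOL1 a coiled-coil protein. The anchors of these 4 loops had a median width of 46.6 kb, against 3.15 kb for own-body distal anchors of LNCaP as a whole. In PRKD1 both loops ended on 1 distal anchor in intron 1, at chr14:30254697-30299961, reached from either side over 63.6 and 97.2 kb. They overlapped loops of at most 3 read pairs in Ishikawa and none in T-47D.

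Own-body loops were found in 5438 genes in Ishikawa (27% of 20162), 4449 in LNCaP (22.1%) and 1905 in T-47D (9.45%). In all, 7825 genes had one in some list and 774 in all 3. Most genes had few distal anchors of this kind, with 1 anchor in 50.1% of genes in Ishikawa, 48.5% in LNCaP and 71.3% in T-47D. In the same order, 90, 115 and 6 genes had 10 or more. The read pairs were concentrated, since the 100 genes with the most held 39.4% of own-body read pairs in LNCaP and 38.5% in T-47D but 16.6% in Ishikawa.

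Long genes had them more often than short ones. Genes with an own-body loop had a median length of 86.9 kb in T-47D, 80.5 kb in LNCaP and 79.6 kb in Ishikawa, against 23.5, 18.3 and 16.6 kb for genes without. Under 10 kb, 0.876% of genes had one in Ishikawa and 0.438% in T-47D. At 100 to 200 kb, 59.2% (57.1 to 61.3) of genes had one in Ishikawa, 52.1% in LNCaP and 23.7% (21.9 to 25.5) in T-47D. Of genes longer than 500 kb the share was 63.3% in Ishikawa, 33.3% in LNCaP and 19.4% in T-47D. Among genes that had both a promoter anchor and a distal anchor in their body, 85.8%, 87.6% and 84.9% had the 2 joined in Ishikawa, LNCaP and T-47D. An anchor is listed only through a listed pair, and an own-body loop itself supplies both anchors. These shares are therefore high in part by construction and are not a rate of joining.

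Long genes offer more room for distal anchors, so each body was set beside a window of the same length reaching upstream from the 5′ end, for genes with an anchor over that end. In LNCaP 58.7% (57.9 to 59.5) of the loops into either window ran into the body, in T-47D 50.2% (48.7 to 51.7) and in Ishikawa 47.3% (46.3 to 48.2). The upstream window can hold promoters of neighbours, whose anchors are not distal and were not counted. Anchors in the body over other start sites, among them internal ones of the gene itself, were left out in the same way. Of the distal anchors present, 64.4% (63.5 to 65.2) in the body and 55.9% (54.9 to 56.8) in the mirrored window were joined to the gene's 5′ end in LNCaP. The values were 65.9% (64.3 to 67.6) and 60.8% (59.1 to 62.4) in T-47D and 30.5% (29.8 to 31.2) and 29.9% (29.2 to 30.5) in Ishikawa. The body was thus ahead of its mirror in both measures in LNCaP, in the joined share only in T-47D, and in neither in Ishikawa, where the mirror held more of the loops.

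The balance moved with gene length in every list. For genes of 10 to 20 kb the body held 45.5% (41.4 to 49.7) of the loops in LNCaP, 40.8% (34.7 to 47.2) in T-47D and 39.3% (35.8 to 43.0) in Ishikawa. For genes of 200 to 500 kb it held 63.0% (61.1 to 64.8), 54.0% (50.1 to 57.8) and 53.1% (50.5 to 55.7). For genes longer than 500 kb the joined share in LNCaP was 41.5% in the body against 18.9% in the mirror, and in T-47D 42.9% against 21.5%, whereas in Ishikawa it was 7.95% against 7.02%. With only the 5′ end of each gene record counted as a promoter, the body held 51.5% in Ishikawa cells, 53.0% in T-47D cells and 60.3% in LNCaP cells, so in Ishikawa the side that held more loops depended on that choice.

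**Figure D2:**
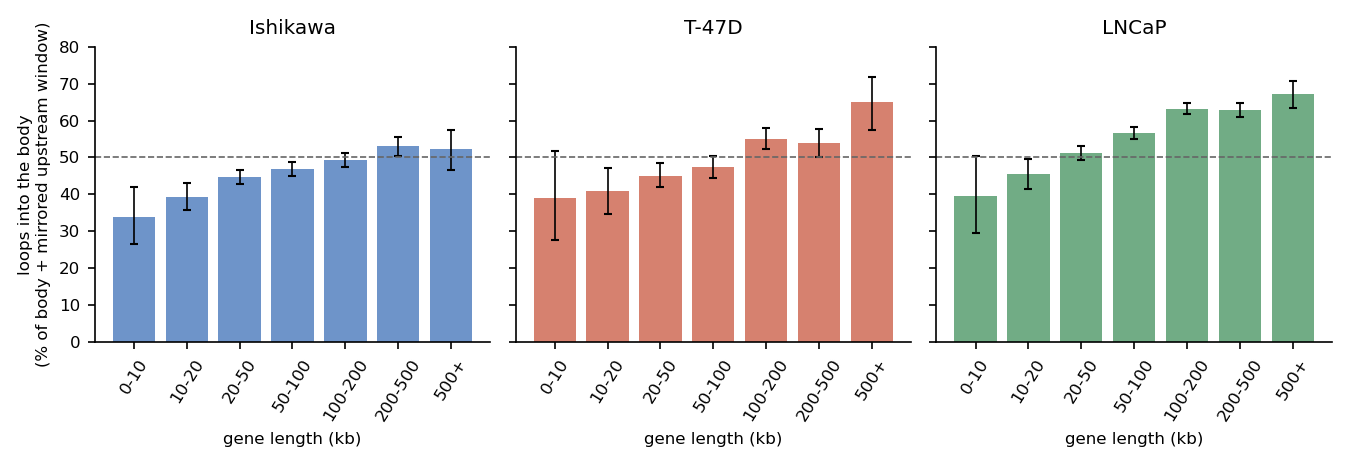
Loops into the gene body as a percent of loops into the body and an upstream window of equal length, by gene length in kb, for each cell line; bars start at 0, error bars are 95% Wilson intervals and the dashed line marks 50%. The share rose from 39.3% to 45.5% at 10 to 20 kb to 53.1% to 63.0% at 200 to 500 kb.

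Within genes the far ends were mostly intronic, which is a description, since no such share over all distal anchors inside genes is set beside it. The midpoint of the distal anchor lay in an intron for 93.1% (92.7 to 93.6) of distal anchors in Ishikawa cells, 92.8% (91.8 to 93.7) in T-47D cells and 93.5% (93.0 to 93.9) in LNCaP cells, and in a coding exon for 2.49%, 1.82% and 1.60%. Some part of an exon was covered by 41.7% of the wide Ishikawa anchors, 24.8% in T-47D and 30.6% in LNCaP. In 13.5% of cases in Ishikawa cells, 15.6% in T-47D cells and 11% in LNCaP cells the midpoint lay outside the canonical transcript, as it did in GREB1 and GSE1.

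For loops from the canonical start, intron 1 held 39.1% (37.0 to 41.2) of the far ends in T-47D, 35.0% (33.6 to 36.3) in Ishikawa and 33.1% (32.1 to 34.2) in LNCaP, although it made up 27.7%, 24.9% and 24.6% of the intron length of these genes. Introns 4 and later held 27.4%, 29.8% and 33.0% of the far ends with 47.4%, 49.3% and 51.1% of the length. The share of distal anchors joined to the start fell along the transcript, from 87.1% in the first of 5 equal stretches to 51.6% in the last in T-47D, from 77.6% to 52.6% in LNCaP and from 56.3% to 19.5% in Ishikawa. Distance from the start moved with this. Between 20 and 50 kb from the start, 75.1% (70.0 to 79.5) of anchors in intron 1 and 69.7% (63.9 to 75) of those in intron 4 or later were joined in T-47D, 77.3% (74.8 to 79.6) and 72.3% (69.6 to 74.9) in LNCaP, and 39.9% (37.0 to 42.9) and 35.7% (33.2 to 38.3) in Ishikawa. At equal distance the difference between intron 1 and late introns was therefore 4 to 6 percentage points, and the intervals overlapped in every list.

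**Figure D3:**
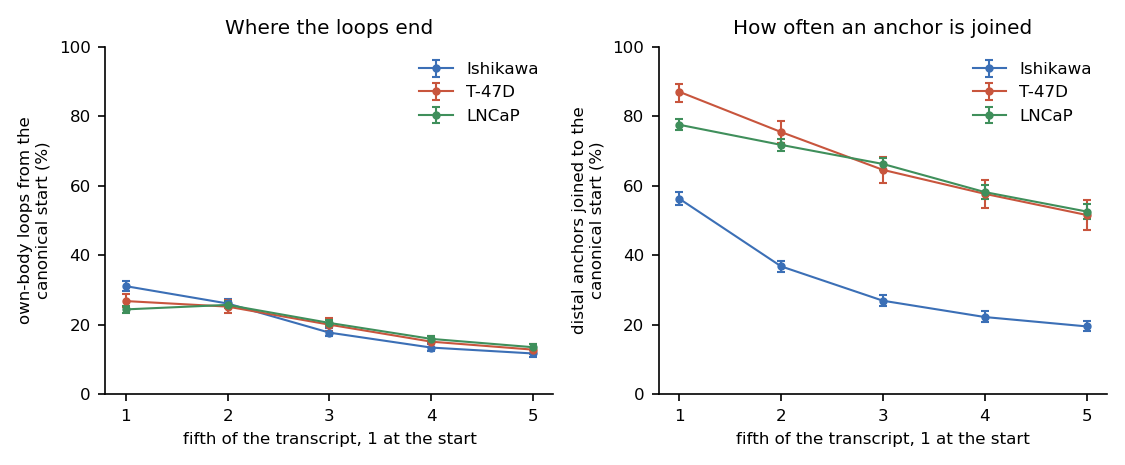
Position of distal anchors along the canonical transcript, cut into 5 equal stretches with 1 at the start. Left, percent of own-body loops from the canonical start that end in each stretch; right, percent of the distal anchors in each stretch that are joined to the canonical start; bars are 95% Wilson intervals. The joined percent fell along the transcript in every line, from 56.3% to 19.5% in Ishikawa.

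Distal anchors inside a gene were joined to that gene more often than to others only. Of the 26009 distal anchors in Ishikawa that lay in a gene with an anchored promoter, 33.4% were joined to a promoter of that gene alone, 13.3% to it and another, 7.24% to another alone and 46.1% to none. In T-47D the values were 39.7%, 35.2%, 12.9% and 12.2% of 3821, and in LNCaP 29.1%, 44.1%, 11.9% and 14.9% of 14508. On this base the share joined only to another gene's promoter was the smallest class in Ishikawa and LNCaP. In T-47D it was within counting error of the share joined to none. The base leaves out distal anchors in genes without an anchored promoter, which cannot be joined to their own gene. Of those, 1604 of 8817 in Ishikawa, 631 of 988 in T-47D and 1349 of 2662 in LNCaP were joined to another promoter. The ranks of the smaller classes therefore hold for this base only. Where an anchor was joined to both, the gene that held it had the most read pairs in 64.9% (63.3 to 66.4) of cases in Ishikawa cells, 68.8% (66.2 to 71.2) in T-47D cells and 68.3% (67.2 to 69.4) in LNCaP cells. This went with distance. Comparing the strongest promoter anchor of each kind, the one of the same gene had more read pairs in 69.1%, 72.9% and 71.7% of cases where it was the nearer, and where it was the farther in 29.3% (24.9 to 34.2), 31.1% (23.8 to 39.4) and 36.0% (32.2 to 39.8).

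Sharing between lines was counted when both anchors of a loop overlapped both anchors of a loop in another list. Of the T-47D own-body loops 33.1% (31.6 to 34.7) were found in LNCaP, where 31.7% of all T-47D promoter-distal loops were found, and 13.5% (12.4 to 14.7) in Ishikawa against 9.67%. Of the LNCaP own-body loops 10.8% (10.3 to 11.3) were found in Ishikawa against 6.74% and 6.95% (6.55 to 7.36) in T-47D against 7.69%. Of the Ishikawa own-body loops 8.86% (8.43 to 9.32) were found in LNCaP against 7.84% and 2.59% (2.35 to 2.85) in T-47D against 2.91%. The wide Ishikawa anchors overlap others more easily, and with overlap of at least 50% of both anchors the shares found in Ishikawa were 0.699% for T-47D and 1.32% for LNCaP.

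Between 10 and 100 kb no surplus was seen at equal span. At 10 to 20 kb, 17.6% (15.0 to 20.5) of T-47D own-body loops and 21.5% (18.8 to 24.5) of other promoter-distal loops were found in Ishikawa, and 18.0% (16.6 to 19.4) and 21.6% (19.8 to 23.6) of LNCaP loops. At 100 to 200 kb LNCaP own-body loops were found in Ishikawa in 5.15% (4.23 to 6.25) of cases and the others in 3.59% (3.26 to 3.96). At longer spans some surpluses rested on few loops. Of T-47D own-body loops of 200 to 500 kb, 13 of 127 were found in Ishikawa (10.2%, 6.08 to 16.7, against 2.36%). Above 500 kb, 4 of 90 LNCaP loops were found in Ishikawa (4.44%, 1.74 to 10.9, against 0.488%) and 4 of 26 Ishikawa loops in LNCaP (15.4%, 6.15 to 33.5, against 2.96%). A deficit at equal span was seen for LNCaP loops in T-47D, in each bin up to 500 kb. LNCaP own-body loops were found in T-47D in 8.78% (7.80 to 9.88) of cases at 10 to 20 kb and 7.66% (6.92 to 8.46) at 20 to 50 kb, against 16.5% (14.8 to 18.3) and 13.9% (13.0 to 14.9) of other promoter-distal loops. Ishikawa loops in T-47D also had a deficit in these bins, at 2.73% (2.29 to 3.25) against 5.26% (4.52 to 6.10) and 2.58% (2.17 to 3.06) against 3.82% (3.39 to 4.30). LNCaP loops in Ishikawa had one at 10 to 20 kb, given above, and at 20 to 50 kb, at 11.7% (10.8 to 12.7) against 13.7% (12.8 to 14.7). Where a loop was found, the partner was mostly an own-body loop too, in 940 of 1044 LNCaP loops found in T-47D and 973 of 1137 T-47D loops found in LNCaP. Found in both other lists were 180 own-body loops of T-47D (5.24%, against 4.02% of its promoter-distal loops), 191 of LNCaP (1.27% against 1.09%) and 164 of Ishikawa (1.05% against 1.27%).

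At the level of genes, 64.1% (62.0 to 66.3) of the T-47D genes with an own-body loop also had one in LNCaP and 56.4% (54.1 to 58.6) in Ishikawa, where 22.1% and 27% of all genes had one. Genes with an own-body loop in all 3 lists had a median length of 130 kb, against 60.3, 35.7 and 53.9 kb for genes with one in Ishikawa, T-47D or LNCaP only. Gene length therefore moved with sharing, and its part in it was not tested. Over the genes shared by 2 lists, Spearman's rho of the number of own-body anchors was 0.322 for T-47D and LNCaP (1222 genes), 0.265 for Ishikawa and T-47D (1074) and 0.264 for Ishikawa and LNCaP (2445), a description across genes that share libraries and gene lengths.

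The 6 genes with own-body loops in matching places in all 3 lists and the highest lowest level were NAALADL2, GSE1, SHROOM3, DLG5, RASSF3 and ADK. Levels are read pairs in own-body loops per 100000 read pairs of the list. Values follow the order Ishikawa, T-47D, LNCaP. NAALADL2 had 329, 178 and 3808 own-body read pairs on 40, 20 and 52 distal anchors. Its level was 31.6, 50.7 and 211. GSE1 had 160, 1411 and 1720 read pairs, or levels of 15.4, 402 and 95.3. DLG5, a scaffold of cell polarity, had 344, 149 and 213 read pairs, or levels of 33.1, 42.4 and 11.8. Its strongest Ishikawa loop (71 read pairs, with 18, 7, 26 and 20 in the parts) overlapped a T-47D loop of 8 read pairs and none in LNCaP. SHROOM3, which shapes epithelial cells through actin, had levels of 13.9, 12 and 51.5, RASSF3 10.6, 10.2 and 120, and ADK, adenosine kinase, 19.2, 23.9 and 7.98. DLG5 and ADK were thus lowest in LNCaP, where NAALADL2, SHROOM3 and RASSF3 were highest.

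The genes with the most own-body distal anchors differed between lines. In Ishikawa they were DLGAP2 and NAALADL2 (40 anchors each), MECOM (30), GRID1 (25), GRIP1 (22) and KCNMA1 (22). DLGAP2, GRID1 and GRIP1 encode parts of the glutamatergic synapse, and none of them had an own-body loop in T-47D or LNCaP. In T-47D they were GSE1 (26), NAALADL2 (20), TRPS1 (12), MECOM (11), MED13L (10) and ITPK1 (10). In LNCaP they were NAALADL2 (52), NCAM2 (30), LPP (29), ANK3 (27), RERE (26) and LUZP2 (26), and LUZP2 had none in either other list. NAALADL2 was thus among the first in all 3 lists, MECOM was in 2, and the others were in 1. NAALADL2, MECOM, GRID1, GRIP1 and KCNMA1 lie in the 3 chromosome segments densest in Ishikawa loops. These segments held 20.1% (19.5 to 20.8) of Ishikawa own-body loops and 26.4% of its other promoter-distal loops. Other genes named in the text lie there too, among them LPP, EPS8, XXYLT1, IQSEC3, DLG5, ADK and RASSF3. The part of these segments in the anchor numbers and levels was not tested.

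A change of 4-fold in promoter-distal read pairs per 100000 between 2 lists, with a floor of 3 read pairs, was used to set lines apart, and own-body read pairs are part of that sum. The background of each pair was the genes with a promoter-distal loop in either list, 14164 for Ishikawa and LNCaP. Of the 7442 genes with an own-body loop in Ishikawa or LNCaP, 31.9% (30.9 to 33.0) were past 4-fold in favour of Ishikawa, against 28.2% of background genes. In favour of LNCaP 26.1% (25.1 to 27.1) were, against 25.6%. Of the 6269 in Ishikawa or T-47D, 19.7% (18.7 to 20.7) favoured Ishikawa against 13.6% of 12776 background genes and 18.6% (17.7 to 19.6) favoured T-47D against 24.6%. Of the 5132 in T-47D or LNCaP, 18.2% (17.2 to 19.3) favoured T-47D against 25.0% of 11573 background genes and 20.1% (19.0 to 21.2) favoured LNCaP against 13.0%. By this sum genes with own-body loops were past the fold less often than background genes in favour of T-47D, the smallest list. By own-body read pairs alone, 34.9% of the same genes favoured Ishikawa and 18.8% LNCaP in the first pair, 11.8% Ishikawa and 15.5% T-47D in the second, and 24.3% T-47D and 13.2% LNCaP in the third. In both pairs with T-47D, that line had more genes past the fold by own-body read pairs. By all promoter-distal read pairs the larger list had more. The floor of 3 read pairs is a level of 0.166 per 100000 for LNCaP, 0.288 for Ishikawa but 0.854 for T-47D. A gene with 0 in the smaller list of a pair therefore needed a higher level in the larger list to pass the fold than the reverse. Which side led by own-body read pairs can thus not be told apart from the floor. The part of the floor in all these shares was not tested.

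Genes past 4-fold in own-body read pairs per 100000 against both other lists with the most own-body read pairs were EPS8, DLGAP2, PALLD and XXYLT1 in Ishikawa, GSE1, TRPS1, BMPER and MED13L in T-47D, and PRKD1, MIPOL1, ZBTB16 and NEDD4L in LNCaP. EPS8, an actin regulator downstream of the EGF receptor, had 452 own-body read pairs in Ishikawa cells, 5 in T-47D cells and 0 in LNCaP cells. TRPS1, a GATA-type repressor of the luminal breast lineage, had 3, 1050 and 0. BMPER, a secreted regulator of bone morphogenetic proteins, had 9, 720 and 0, and MED13L, a subunit of the Mediator kinase module, 0, 467 and 31. PRKD1 had 7, 0 and 12943 read pairs, MIPOL1 0, 208 and 10801, ZBTB16 0, 0 and 5063, and NEDD4L, a ubiquitin ligase of membrane channels, 34, 15 and 4834. The ZBTB16 loop of 1872 overlapped an Ishikawa loop of 7 read pairs that was not an own-body loop of ZBTB16. PALLD had 390, 14 and 11, and XXYLT1, a xylosyltransferase, 340, 0 and 41. GSE1 was the exception in raw numbers, with more read pairs in LNCaP than in T-47D but not per 100000.

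Of 20 estrogen response genes, 8 had an own-body loop in Ishikawa cells, 8 in T-47D cells and 7 in LNCaP cells, where 27%, 9.45% and 22.1% of all genes had one. Their median length was 24.8 kb, against 27.2 kb for all genes. GREB1 had the most own-body read pairs of the list in every line, with 80 in Ishikawa cells, 387 in T-47D cells and 432 in LNCaP cells, or levels of 7.69, 110 and 23.9. These were 93.0%, 91.7% and 96.9% of its promoter-distal read pairs, so most of these read pairs stayed within the gene record. By number of distal anchors the shares were lower, since 4 of 6, 5 of 9 and 7 of 10 were reached by own-body loops. None of its own-body loops started from an anchor over the canonical start. In T-47D the anchors over the 5′ end (11617788 to 11624859) and over an internal start (11676489 to 11682561) were each joined to the same 5 distal anchors, the former by 79, 56, 23, 21 and 3 read pairs. In LNCaP 3 promoter anchors reached 7 distal anchors, of which 6 were reached from all 3.

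**Figure D4:**
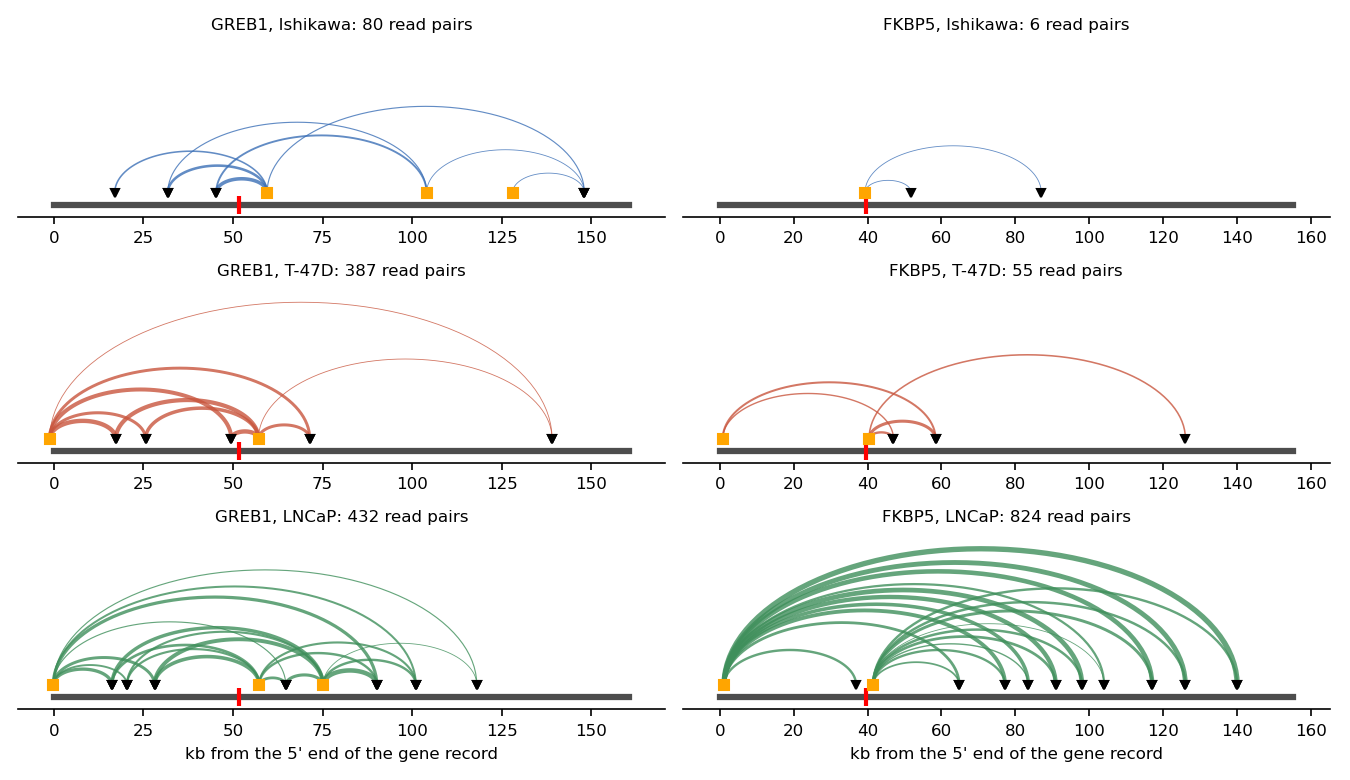
Own-body loops of GREB1 (left) and FKBP5 (right) in the 3 cell lines, drawn as arcs over the gene record (grey bar) in kb from its 5′ end; squares are promoter anchors, triangles distal anchors, the red tick is the canonical start and line width grows with the logarithm of read pairs. GREB1 had 80, 387 and 432 read pairs in Ishikawa, T-47D and LNCaP, and FKBP5 6, 55 and 824, most of the latter from the anchor over the 5′ end to the far part of the gene.

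RARA, the retinoic acid receptor alpha, had 24 own-body read pairs in Ishikawa cells, 215 in T-47D cells and 46 in LNCaP cells, or levels of 2.31, 61.2 and 2.55. Loops of each line ended on overlapping distal anchors, at chr17:38486423-38489953 in Ishikawa, chr17:38485810-38487830 in T-47D and chr17:38486420-38489951 in LNCaP. SIAH2 had 0, 127 and 93 read pairs. TGFA, a ligand of the EGF receptor, had own-body loops in Ishikawa only among the 3 lists, with 46 read pairs on 3 distal anchors that made up 40.4% of its promoter-distal read pairs. The most used of these, at chr2:70710136-70725808, was joined to the internal promoter anchor by 22 read pairs (5, 4, 7 and 6 in the parts) and to the anchor over the 5′ end by 11 (0, 3, 4 and 4). IGFBP4, which binds insulin-like growth factors, had 45 read pairs in Ishikawa cells, 38 in T-47D cells and 0 in LNCaP cells, but its level was higher in T-47D, at 10.8 against 4.33. NRIP1, a corepressor of nuclear receptors, and CCND1, cyclin D1, had own-body loops in LNCaP only (99 and 101 read pairs). The CCND1 contact was not particular to LNCaP, since its loop overlapped at both ends a T-47D loop of 74 read pairs whose distal midpoint lay just past the gene's end. PGR, the progesterone receptor, had 3 in Ishikawa and 31 in T-47D, the latter a single loop of 91.1 kb from the 5′ end that held 6.07% of its promoter-distal read pairs.

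Of 20 androgen response genes, 12 had an own-body loop in LNCaP, 9 in Ishikawa and 7 in T-47D, where 22.1%, 27% and 9.45% of all genes had one. Their median length was 64.0 kb, longer than that of all genes. LRIG1, a repressor of growth factor receptors, had 1095 own-body read pairs in LNCaP, 36 in T-47D and 0 in Ishikawa, where its strongest loop overlapped one of 7 read pairs that was not an own-body loop of LRIG1. ABCC4, an efflux transporter, had 965, 0 and 33 in the same order, and FKBP5 824, 55 and 6. HOMER2, a scaffold protein, had 697, 7 and 13 (levels of 38.6, 1.99 and 1.25), and TPD52 634, 30 and 16. The lipid enzymes PLPP1 and ACSL3 had 521, 9 and 0, and 194, 0 and 13. NDRG1 had 53, 0 and 0. ZBTB10 had 34 in LNCaP, 5 in T-47D and 3 in Ishikawa, which per 100000 was 1.88, 1.42 and 0.288. TMPRSS2, a serine protease of the prostate, had 0 in LNCaP, 11 in T-47D and 35 in Ishikawa, although its promoter had 883 promoter-distal read pairs in LNCaP, all of them to anchors outside the gene. The genes named had 30 or more own-body read pairs in some list, a limit that the deepest list, LNCaP, passes most easily. Below it, PMEPA1 had 16 and SLC45A3 had 3 in Ishikawa and both had 0 in the other lists.

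The loops of FKBP5 in LNCaP are described as an example of a single gene, and those from its 5′ end given here were longer than the median own-body span of 35.0 kb in that list. The anchor over its 5′ end, which also covers a start site of ARMC12, reached distal anchors 139, 125, 96.8 and 116 kb away with 191, 122, 107 and 94 read pairs. The anchor over the canonical start, centred 41.5 kb downstream of the 5′ end, reached the same 4 distal anchors with 13, 14, 14 and 21. The farther promoter thus had at least 4 times the read pairs of the nearer one at each of them. The anchor over the 5′ end (chr6:35684478-35705903) was wider than the other (chr6:35651615-35658021), and the part of width in the difference was not tested.

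Among 21 lineage factors, 9 had an own-body loop in Ishikawa cells, 6 in T-47D cells and 4 in LNCaP cells, where 27%, 9.45% and 22.1% of all genes had one. ESR1, the estrogen receptor alpha, had 239, 108 and 5 own-body read pairs in the same order, or levels of 23.0, 30.7 and 0.277, so it was highest in T-47D by level. Its strongest Ishikawa loop (35 read pairs, with 6, 6, 13 and 10 in the parts) ran 130 kb upstream from the anchor over the canonical start. The strongest T-47D loop of ESR1 (21 read pairs) started from a start site between the 5′ end of the record and the canonical start and spanned 9.34 kb. It overlapped an Ishikawa loop of 24 read pairs, the third strongest of ESR1 there. GATA3 had 192 and SPDEF 76 in T-47D and 0 in Ishikawa and LNCaP. GRHL2, a factor of epithelial identity, had 1593 in LNCaP, 20 in Ishikawa and 0 in T-47D, and 1 LNCaP loop of 76.4 kb from its 5′ end held 819. MECOM, a zinc-finger factor, had 613 in Ishikawa and 88 in T-47D, and RUNX1 47 and 3. PAX8, a factor of the Müllerian lineage, had 27 read pairs in Ishikawa only among the 3 lists, all on 1 distal anchor reached from the 5′ end (16 read pairs) and from an internal start (11).

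**Figure D5:**
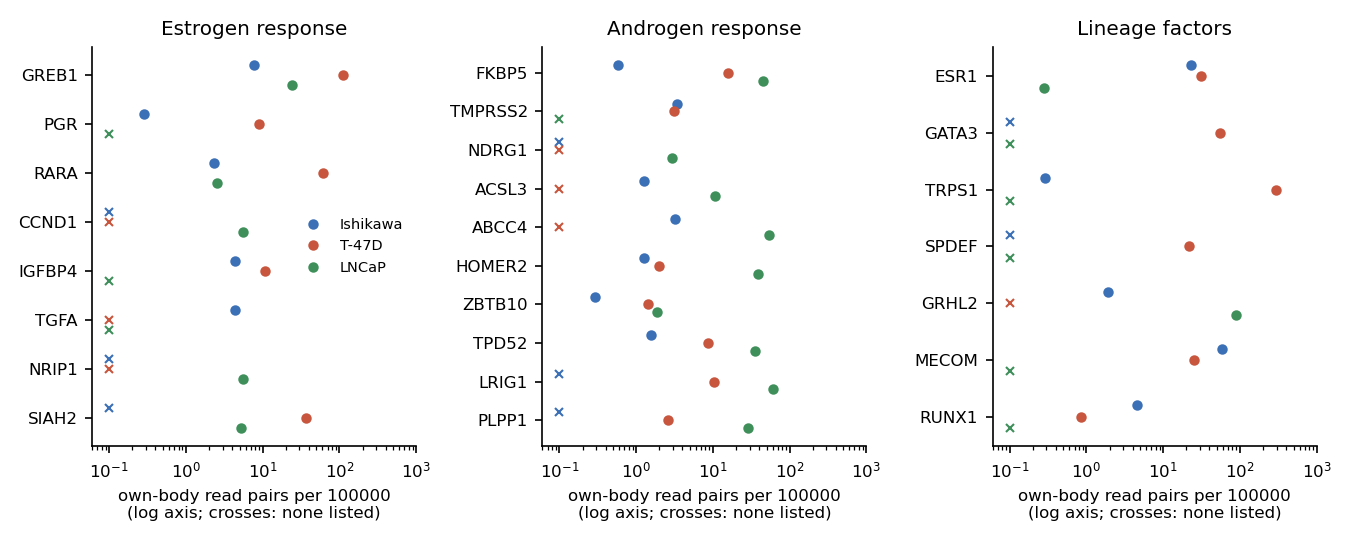
Own-body read pairs per 100000 read pairs of the list, on a log axis, for genes of 3 lists with 30 or more own-body read pairs in some cell line, 1 lineage factor left out; dots are values and crosses at the left mark lists with no own-body loop of the gene. GREB1 had levels of 7.69, 110 and 23.9 in Ishikawa, T-47D and LNCaP, and RARA 2.31, 61.2 and 2.55. The limit is on read pairs not scaled by depth, so a deeper list passes it more easily.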

How the data were processed

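H3K27ac HiChIP was measured in 4 Ishikawa, 1 T-47D and 2 LNCaP samples. The deposited lists give, for each pair of anchors, the count of read pairs that joined them. Per the study's methods and the submitters' processing notes, the authors mapped reads to hg19 with HiC-Pro (version not given in the sources used here), called loops with hichipper and removed loops under 3 read pairs or not significant after correction, so weak contacts of the shallower lists are missing. Samples of a line share 1 list. The Ishikawa list consists of 4 sorted parts, in which a pair can recur, and these were summed. Which sample each part holds was not assigned, so no sample depth, replicate error or test could be had. There were 0 columns of other samples.

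Start sites, exons and genes were those of GENCODE release 44 lifted to GRCh37 (20162 protein-coding genes). An anchor was a promoter anchor when it overlapped a 500 bp window on a start site. Loops counted as shared when both anchors overlapped by 1 bp or more. Levels are read pairs per 100000 read pairs of a list, and folds between lists used a floor of 3 read pairs. Sequences were read from the GRCh37 reference genome. Python 3.11.15, NumPy 2.4.6, SciPy 1.17.1, pandas 2.3.3, pysam 0.24.0 and Matplotlib 3.10.9 were used, and the steps were tested on simulated data.

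The members, gene lists and comparisons were chosen with earlier results of these data known. Genes named were, per list, the 6 with the most own-body distal anchors, those of the 4 strongest own-body loops, and the 4 past 4-fold against both other lists with the most own-body read pairs. The 6 genes with a loop found in all 3 lists and the highest lowest level were also named, as were the members of the estrogen response, androgen response and lineage lists with 30 or more own-body read pairs in a list. PAX8, below that limit, was named after its values were seen, and 1 lineage factor that met the limit is not reported here. Alternatives were the minimum of read pairs, equal numbers of loops, the range of spans, the promoter window and start sites, the overlap, and leaving out parts of the Ishikawa list.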

Additional observations from a re-analysis of the deposited data

Results flagged for a closer look

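Anchors joined to themselves, which are no loops and entered no comparison above, were listed for many own-body distal anchors. In Ishikawa 56.1% (55.2 to 57.0) of the 12138 own-body distal anchors had such a pair, with a median of 6 read pairs, against 46.8% of all distal anchors with a median of 5. In T-47D 60.2% (58.4 to 62.0) of 2862 had one, with a median of 9 read pairs, against 56.8% of all distal anchors with the same median. Both sets of anchors had nearly the same median width, at 5.03 and 5.06 kb in Ishikawa and 2.38 and 2.37 kb in T-47D. The difference was not tested.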

How the results depend on the processing

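The order of the lines, Ishikawa over LNCaP over T-47D for the own-body share of promoter-distal loops and LNCaP over T-47D over Ishikawa for the share of body over mirror, was the same under every alternative in which that share was recomputed. Within bins of equal span the own-body share was higher in LNCaP than in Ishikawa up to 100 kb. The own-body share in Ishikawa, T-47D and LNCaP was 44.6%, 26.3% and 31.8% with 5 or more read pairs, 49.4%, 32.4% and 40.5% with 10 or more, 26.5%, 15.3% and 20.1% for spans of 20 kb to 1 Mb, and 25.3%, 16.7% and 19.5% with 1 start site per gene. With about equal numbers of loops it was 47.6% in Ishikawa and 40.5% in LNCaP, and with the whole distal anchor in the body 34.3% and 24.5%. In Ishikawa it was 45.0% for loops in 2 or more parts, and 35.8% to 37.7% on leaving out 1 part. The body share against the mirror in Ishikawa was 46.2% and 45.4% with 5 and 10 or more read pairs, 45.9% with equal numbers, 50.1% for 20 kb to 1 Mb, 51.5% with 1 start site and 45.6% for loops in 2 or more parts (46.6% to 47.3% without 1 part). In T-47D it was 46.6% with 10 or more read pairs and 53.0% with 1 start site, and in LNCaP 60.0% for 20 kb to 1 Mb and 60.3% with 1 start site. Genes with an own-body loop of 10 or more read pairs numbered 2383 in Ishikawa cells, 719 in T-47D cells and 2695 in LNCaP cells.

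The share of LNCaP own-body loops found in Ishikawa was 7.53%, 5.04% and 6.19% with 5 and 10 or more read pairs and with equal numbers, 7.53% for 20 kb to 1 Mb, 12.7% with 1 start site, 5.55% for loops in 2 or more parts, 1.32% with 50% overlap of both anchors, and 8.59% to 10.5% on leaving out 1 part. For T-47D loops found in Ishikawa the values were 10.1%, 6.88%, 5.33%, 10.7%, 7.05% for 2 or more parts, 0.699% with 50% overlap, and 10.9% to 13.4%. T-47D loops were found in LNCaP in 22.3% of cases with equal numbers, 41.3% with 1 start site and 11.5% with 50% overlap. Of alternatives chosen after seeing the data, leaving out the 3 chromosome segments densest in Ishikawa loops gave an own-body share of 37.4% and shares found in Ishikawa of 8.99% for LNCaP and 11.1% for T-47D, and promoter anchors over 1 gene gave body shares of 46.3% in Ishikawa and 60.5% in LNCaP. In all, 40 values of the main results stayed within their counting interval or 1.5-fold limit and 60 moved. The cause of these changes was not tested. No paired analysis was possible because the lists carry no column per sample. The depth of each list limits all shares, since a contact under 3 read pairs is not listed.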

Other observations

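Among 20 coregulators of nuclear receptors, a list of long genes (median length 187 kb), 19 had an own-body loop in LNCaP, 13 in Ishikawa and 9 in T-47D, where 22.1%, 27% and 9.45% of all genes had one. TBL1XR1, a corepressor subunit, had 948 own-body read pairs in LNCaP, 74 in Ishikawa and 99 in T-47D. The corepressor NCOR1 had 498, 40 and 0 in the same order, and ARID1B, a subunit of the BAF remodeller, 252, 142 and 33. Among 15 receptor tyrosine kinases (median length 53.3 kb), 8 had one in Ishikawa cells, 5 in T-47D cells and 4 in LNCaP cells. Their shares were 53.3%, 33.3% and 26.7%, against 27%, 9.45% and 22.1% of all genes. The LNCaP share was thus near that of all genes. In the same order IGF1R had 53, 107 and 378 read pairs, or 5.09, 30.5 and 20.9 per 100000 read pairs of the list, and FGFR2 had 35, 20 and 0, or 3.36 and 5.69 in Ishikawa and T-47D. Both were thus highest in T-47D on that scale.

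Of 86 cytosolic ribosomal protein genes, short genes with a median length of 5.60 kb, 3 had an own-body loop in Ishikawa cells, 3 in T-47D cells and 5 in LNCaP cells, although 60, 75 and 80 of them had a promoter under an anchor. These were 3.49%, 3.49% and 5.81%, against 27%, 9.45% and 22.1% of all genes. Of all genes under 10 kb, 0.876%, 0.438% and 0.628% had one. Of 15 very long genes (median length 1698 kb), 9 had one in Ishikawa cells, 3 in T-47D cells and 8 in LNCaP cells. Own-body distal anchors lay over a start site of a long non-coding RNA in 3.20% of cases in Ishikawa cells, 3.18% in T-47D cells and 2.37% in LNCaP cells, against 4.96%, 9.40% and 5.53% of all distal anchors.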
